A study of Mus musculus with 3 samples.

Results

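Hoxc10 sites of the mouse hindlimb bud with a Tbx4 summit 51 to 200 bp away are described here, each as a pair of 1 Hoxc10 and 1 Tbx4 summit. They were selected on the positions of the summits alone: a site in the Hoxc10 list was taken when the nearest Tbx4 summit on the same chromosome lay in that range of distances. The rule found 300 of the 1614 Hoxc10 sites, or 18.6% (95% Wilson interval 16.8 to 20.6%). Their partners were 300 different Tbx4 sites, 6.28% (5.62 to 7.0%) of the 4780 in the Tbx4 list. All 300 pairs were each other's nearest. They made up 57.9% (53.6 to 62.1%) of the 518 Hoxc10 sites with a Tbx4 summit within 200 bp, and the other 218 had it within 50 bp. The distance is therefore a description of the choice and not a result.

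The data are 2 lists of peak summits from chromatin immunoprecipitation with sequencing (ChIP-seq). This assay crosslinks proteins to DNA, pulls down the fragments bound by 1 factor with an antibody and counts sequenced fragments along the genome, and a summit is the base where they pile up highest. The groups are a Tbx4 ChIP with a homemade antibody and a Hoxc10 ChIP with an AbCam antibody, each on hindlimb tissue of wild type CD1 embryos at stage e11.5. Each group is 1 sample in bulk tissue, so there are no replicates, and the labels do not say how many embryos were pooled. The labels list another Hoxc10 sample, made with an antibody from Santa Cruz, which was not analysed here. A pair of summits in bulk tissue does not show that both proteins were on the same DNA molecule or in the same cell. All p-values below describe the sites of these lists and not the spread between embryos. The lists hold no read counts, so depth is unknown, and intervals cover counting error only.

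Tbx4 is a T-box factor of the hindlimb bud that takes part in bud outgrowth and in forming the connective tissues of the limb. Hoxc10 belongs to the posterior Hox genes, homeodomain factors that pattern the limb and the posterior body axis. Both act largely at enhancers, short regulatory stretches that can lie far from the gene they control, and the nearest gene is a position and not a proven target.

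Start sites were listed for chromosomes that hold 280 of the 300 members, and the other members were not checked. Of the 280, 3 pairs had a summit inside a listed gene start, a RefSeq window (build GRCm38.p6) from 250 bases before to 50 bases after a start site. These windows are shown because they are the stretches with a member summit for which sequence was used here. Capitals mark the bases between the Hoxc10 and the Tbx4 summit, both included, as far as the window holds them, and each run reads 5′ to 3′ along the gene's strand.
Ric8b (chr10:84917363-84917662, plus strand): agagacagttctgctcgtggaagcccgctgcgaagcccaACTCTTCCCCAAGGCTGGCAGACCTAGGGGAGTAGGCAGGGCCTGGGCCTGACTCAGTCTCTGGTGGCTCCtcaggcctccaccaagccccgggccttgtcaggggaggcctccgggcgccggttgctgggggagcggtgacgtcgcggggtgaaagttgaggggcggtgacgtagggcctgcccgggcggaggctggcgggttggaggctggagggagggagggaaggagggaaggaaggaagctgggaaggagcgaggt
Gm34157 (chr9:61370441-61370740, minus strand): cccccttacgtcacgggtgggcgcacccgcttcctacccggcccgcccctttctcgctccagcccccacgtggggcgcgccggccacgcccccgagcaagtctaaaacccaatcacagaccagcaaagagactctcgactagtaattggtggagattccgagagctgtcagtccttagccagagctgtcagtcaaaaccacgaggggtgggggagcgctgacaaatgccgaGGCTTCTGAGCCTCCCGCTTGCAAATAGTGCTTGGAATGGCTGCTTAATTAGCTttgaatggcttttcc
Trib2 (chr12:15816736-15817035, minus strand): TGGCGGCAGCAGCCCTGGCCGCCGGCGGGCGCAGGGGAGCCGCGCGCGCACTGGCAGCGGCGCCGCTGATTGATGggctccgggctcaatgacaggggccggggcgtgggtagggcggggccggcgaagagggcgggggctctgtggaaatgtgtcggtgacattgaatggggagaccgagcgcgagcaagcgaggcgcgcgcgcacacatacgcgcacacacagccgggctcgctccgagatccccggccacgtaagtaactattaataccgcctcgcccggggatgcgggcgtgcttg

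At Ric8b, which encodes a chaperone and exchange factor of G protein alpha subunits, the Hoxc10 summit scored 19.94 and lay at base 40 of the run, and the Tbx4 summit scored 6.19 and lay at base 110. Relative to the start site these are positions -211 and -141. Gm34157 is a long non-coding RNA gene beside Tle3, a Groucho corepressor gene. There the Hoxc10 summit (score 3.83, base 232) and the Tbx4 summit (score 3.67, base 285) lay on either side of the start site, at -19 and 34. At Trib2, which encodes a pseudokinase, the Hoxc10 summit (score 19.94) was at base 75 and at -176, and the Tbx4 summit (score 3.67) was outside the window, at -290. By the spans of protein-coding genes, which are not the start windows, the Trib2 pair was the only member with summits on both sides of a gene boundary. Its Hoxc10 summit lay 1 bp inside the span of Trib2, which reaches past the start site of the window, and its Tbx4 summit lay outside. The start window of the non-coding gene Gm5432, on the opposite strand, covers the same Hoxc10 summit.

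The share of G and C was 68.3% at Ric8b, 59.3% at Gm34157 and 71.0% at Trib2. The median over all 32851 windows of the table was 52.7% (quartiles 45.7 and 61.7%). Ric8b and Trib2 were above the upper quartile, and Gm34157 lay between the quartiles. The 3 windows held 17, 19 and 40 CpG dinucleotides in that order of genes, against a median of 7. The T-box core GGTGTG or its complement CACACC was in none of them and in 19.0% of all windows. The letters TTTAC or GTAAA, part of posterior Hox sites, were in none and in 31.5% of all windows, and TTTAT or ATAAA in none and in 40.0%. The homeodomain core TAATTA, looked for after the sequence had been seen, was at bases 277 to 282 of the Gm34157 run. It lay 6 bp from the Tbx4 summit and 47 bp from the Hoxc10 summit, and 5.29% of all windows hold it. It lay between the summits, with no other searched motif to overlap. A match is a string of letters and not a proven site.

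The summits of the 300 pairs lay at a median of 98.5 bp (quartiles 72.8 and 136.2, range 51 to 199). There were 154 pairs at 51 to 100 bp, 93 at 101 to 150 bp and 53 at 151 to 200 bp. The decline went on past the limit, with 30 Hoxc10 sites at 201 to 250 bp and 20 at 251 to 300 bp. The Tbx4 summit was at the higher coordinate in 140 of the 300 pairs, 46.7% (41.1 to 52.3%). Of 212 pairs whose nearest gene has a known strand, it lay further along that strand than the Hoxc10 summit in 96, 45.3% (38.7 to 52.0%). Outside genes it was nearer to the gene end in 104 of 192 pairs, 54.2% (47.1 to 61.1%). Each of these intervals includes an even split, so a preferred side was not detectable at this number of sites.

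**Figure D1:**
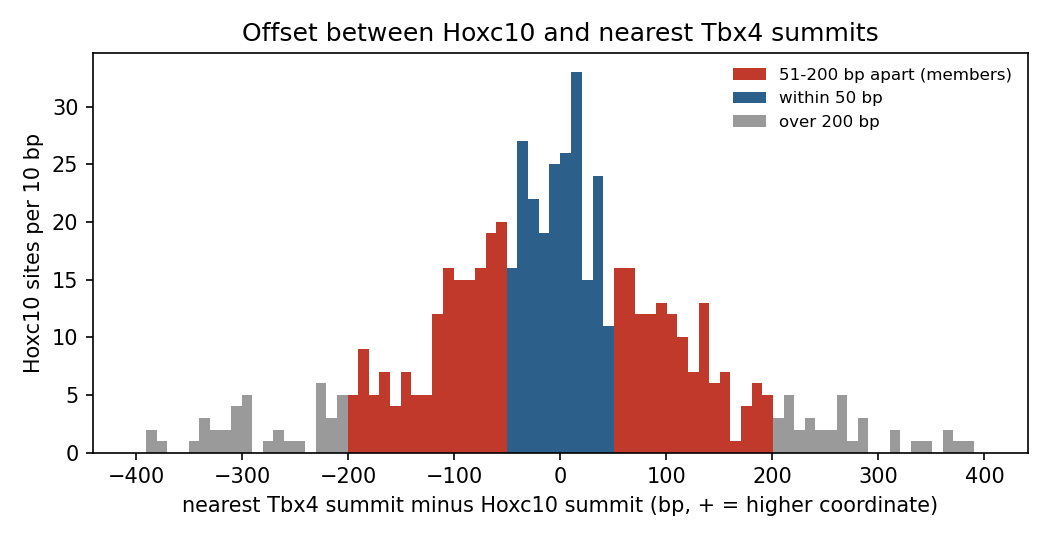
Position of the nearest Tbx4 summit relative to each Hoxc10 summit (x axis, bp, positive towards higher coordinates) against the number of Hoxc10 sites per 10 bp (y axis), with offset 0 counted in the first positive bin. Red bars are the 300 pairs 51 to 200 bp apart, blue bars the 218 within 50 bp and grey bars sites over 200 bp apart, of which those beyond 400 bp are not drawn; counts fall away on both sides without a gap at either limit.

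The pairs just inside the lower limit, at 51 bp, were inside Clnk (Hoxc10 score 12.24, Tbx4 score 7.14) and inside Tead1 (6.34 and 3.67), the DNA-binding partner of the Hippo pathway. The closest pairs left out, at 50 bp, lay inside Kcnab1 (10.67 and 14.74) and nearest to Gm40892 (4.43 and 6.19). At the upper limit, pairs at 199 bp near Lrrc4c (2.2 and 2.26) and at 198 bp near Tmem26 (15.53 and 8.12) were kept. Those at 201 bp near Rasgef1b (42.2 and 20.91) and at 206 bp near Barx1 (3.83 and 2.94) were not.

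The score that the authors deposited with each summit is given by the peak caller MACS2 on a −log10 scale, and a higher score means a peak that stands out more from its background. Scores are read here within each list only. In the pairs 51 to 200 bp apart the Hoxc10 score ran from 2.2 to 237.9, with a median of 8.43 (quartiles 5.69 and 13.9). The median was 9.91 at sites within 50 bp of a Tbx4 summit and 7.36 at Hoxc10 sites with no Tbx4 summit within 200 bp. A Hoxc10 score above the list median of 7.72 was found in 152 of the 300 members, 50.7% (45.0 to 56.3%), and in 49.1% of the whole list. The share was 61.5% (134 of 218, 54.9 to 67.7%) within 50 bp, a difference of -10.8 percentage points that did not pass after adjustment over 10 comparisons (Fisher's exact test, two-sided, p = 0.0158, Benjamini-Hochberg adjusted p = 0.0527). It was 46.2% (506 of 1096) at unshared Hoxc10 sites (difference 4.50 points, Fisher's exact test, adjusted p = 0.393). Counted above the upper quartile of 12.99 instead, 91 of 300 members and 233 of 1096 unshared sites passed, a difference of 9.07 points (Fisher's exact test, adjusted p = 0.00502).

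Tbx4 scores of the partners ran from 1.63 to 152.4, with a median of 6.19 (quartiles 3.67 and 12.4). The median was 7.63 for partners within 50 bp and 3.67 for the 4261 Tbx4 sites with no Hoxc10 summit within 200 bp. Scores above the Tbx4 list median of 3.67 were found in 205 of the 300 partners, 68.3% (62.9 to 73.3%), against 48.9% of the whole Tbx4 list. Among unshared Tbx4 sites the share was 46.3% (1974 of 4261), 22.0 points lower than in the partners (Fisher's exact test, adjusted p = 1.4e-12). Partners within 50 bp reached 72.0% (157 of 218), a difference of -3.69 points (Fisher's exact test, adjusted p = 0.427). The partners thus scored higher than unshared Tbx4 sites, and how they compare with the closest partners was not resolved.

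The scores of both factors were only loosely related within the pairs. Spearman's rho was 0.156 and Pearson's r 0.207 over the 300 pairs, and 0.142 and 0.154 without the 2 pairs farthest from the median Hoxc10 score. At the 218 sites within 50 bp, with none removed, rho was 0.203 and r 0.619. All points come from the same 2 libraries, so these are descriptions. Both scores were above the upper quartile of their list in 49 of the 300 pairs, or 16.3%. The same held for 46 of the 218 sites within 50 bp, or 21.1%. Among the 300 pairs only the Hoxc10 score was above it in 42, only the Tbx4 score in 83 and neither in 126. The distance between the summits said little about either score, with rho of -0.00662 for Hoxc10 and 0.0290 for Tbx4. The median Hoxc10 score was 7.72, 9.13 and 7.72 in the bins of 51 to 100, 101 to 150 and 151 to 200 bp. The median Tbx4 score was 6.19, 6.19 and 7.14.

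**Figure D2:**
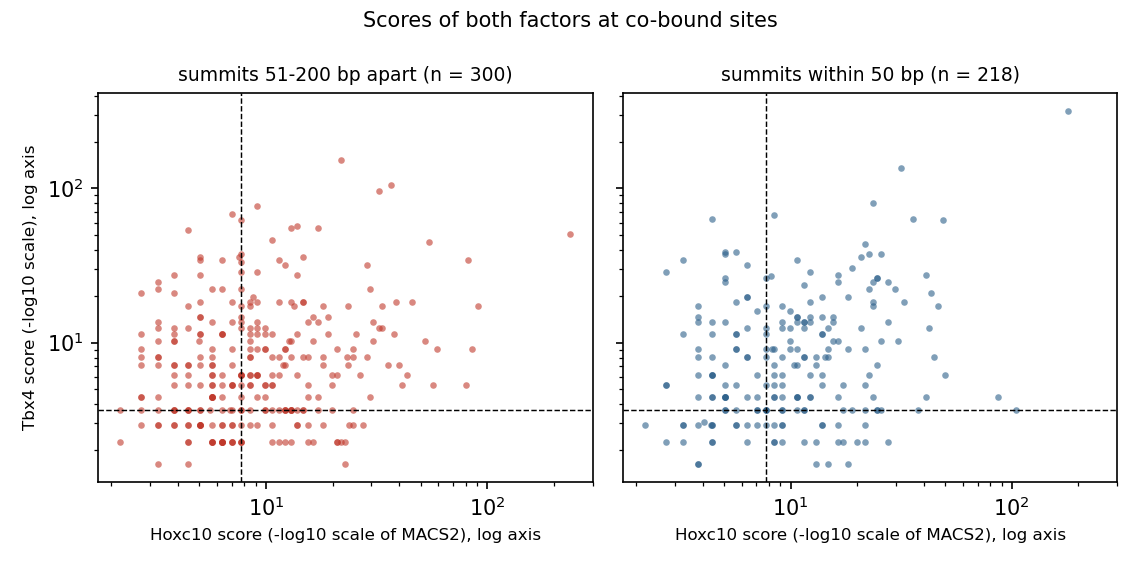
Hoxc10 score (x axis) against Tbx4 score (y axis) of each co-bound site, both on the −log10 scale of MACS2 and on log axes, for the 300 pairs 51 to 200 bp apart (left, red) and the 218 within 50 bp (right, blue). Dashed lines are the medians of the whole lists, 7.72 for Hoxc10 and 3.67 for Tbx4; in the left panel 205 of 300 points lie above the Tbx4 line and 152 of 300 beyond the Hoxc10 line.

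The pair with the highest Hoxc10 score was also the first by summed rank. It lay on chromosome 2, with the Hoxc10 summit at 173171698 (score 237.9, rank 1 of the Hoxc10 list) and the Tbx4 summit at 173171638 (score 50.96, rank 36 of the Tbx4 list), 12424 bp downstream of Pck1. Other pairs with a high Hoxc10 score had Tbx4 scores over a wide range. The site 73368 bp downstream of Ly86 scored 80.38 for Hoxc10 and 5.30 for Tbx4. Inside Bmf, the gene of a pro-apoptotic BH3-only protein, the Hoxc10 summit at 118533302 of chromosome 2 scored 59.39 and the Tbx4 summit, 194 bp away, 9.15. A site 49671 bp from Gm38821 had 52.35 and 10.21. Inside Farp1, a gene for a FERM domain protein of the plasma membrane, the scores were 45.52 and 18.38. Inside Uvrag, a gene of autophagy, both were high, at 81.66 and 34.51 with the summits 139 bp apart.

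Another set was led by Tbx4. The highest Tbx4 score among the partners, 152.4 (rank 4 of the Tbx4 list), belonged to a summit at 37030474 of chromosome 9 inside Pknox2, whose Hoxc10 summit 170 bp away scored 21.79 and ranked 147. Upstream of Ssbp3, which encodes a cofactor of the LIM-homeodomain partner Ldb1, the Tbx4 summit scored 62.04 and the Hoxc10 summit 7.72. Upstream of Elac2, which encodes an enzyme of transfer RNA processing, the values were 54.08 for Tbx4 and 4.43 for Hoxc10. Near Slc14a2, a urea transporter gene, they were 76.85 and 9.16, and near Naaladl2 68.55 and 7.02. Inside genes lay 2 more, with 57.24 and 13.86 at Rora, the gene of a nuclear receptor, and 55.65 and 17.26 at Ntm, the gene of a neural adhesion molecule. Nxnl2, with 55.65 and 13.04, completed this group. High in both lists were the pairs inside Iqca (Hoxc10 36.79, Tbx4 104.5), near 1700122O11Rik (54.67 and 44.83), upstream of Spag17 (32.61 and 95.70), upstream of Tle4 (28.55 and 31.67) and downstream of Tmem114 (29.44 and 22.20). The remaining high Hoxc10 site, near A430057M04Rik, had 90.72 and 17.15.

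Members were rare at the ends of genes. Of the 300 members 3 lay no more than 1 kb from either end of a protein-coding gene, 1.00% (0.341 to 2.90%), where the whole Hoxc10 list had 5.02%. The share was 6.66% at unshared Hoxc10 sites (73 of 1096), and the difference of -5.66 points passed (Fisher's exact test, adjusted p = 9.9e-05). Against the sites within 50 bp (5 of 218, 2.29%) the difference was -1.29 points (Fisher's exact test, adjusted p = 0.393). The 3 genes were Ric8b, Trib2 and C330018D20Rik, where the scores were 5.05 for Hoxc10 and 2.94 for Tbx4. Among the 280 members on chromosomes with listed start sites, 8 lay within 1000 bp of a start of any gene class, and the median distance to a start was 42870 bp.

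Most pairs lay far from gene ends, and distances to a gene end are given also for sites inside genes. The median distance to the nearest gene end was 80888 bp (quartiles 31684 and 178201) in members, 72379 bp at sites within 50 bp and 60058 bp at unshared Hoxc10 sites. More than 100 kb from any gene end lay 126 members, 42.0% (36.6 to 47.7%), where the whole list had 39.2%. Some of these were inside long genes, as at Robo2 and Auts2, so this class overlaps with the one inside genes below. The differences, 0.257 points from the sites within 50 bp and 4.14 points from the unshared ones, were not past the threshold (adjusted p = 1.00 and 0.393 by Fisher's exact test). Beyond 50 kb the difference from the unshared sites passed, at 10 points (196 of 300 against 606 of 1096, Fisher's exact test, adjusted p = 0.00645). Beyond 200 kb it was -1.14 points (59 of 300 against 228 of 1096, Fisher's exact test, adjusted p = 0.688), so it depended on the limit chosen. Each p was adjusted within its own setting only. Inside a gene lay 108 members, 36.0% (30.8 to 41.6%), where the whole list had 38.9%. This was -4.37 points from the sites within 50 bp and -3.42 points from the unshared ones (Fisher's exact test, adjusted p = 0.393 for each). The 108 were in 94 different genes with a median length of 232046 bp, against 17169 bp over all protein-coding genes. Host genes of the sites within 50 bp had a median length of 204772 bp and those of unshared Hoxc10 sites 196610 bp. The member farthest from any gene end, 1250844 bp upstream of Map3k7, scored 5.05 for Hoxc10 and 3.67 for Tbx4. Map3k7 encodes the kinase TAK1 of TGF-beta and BMP signalling.

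**Figure D3:**
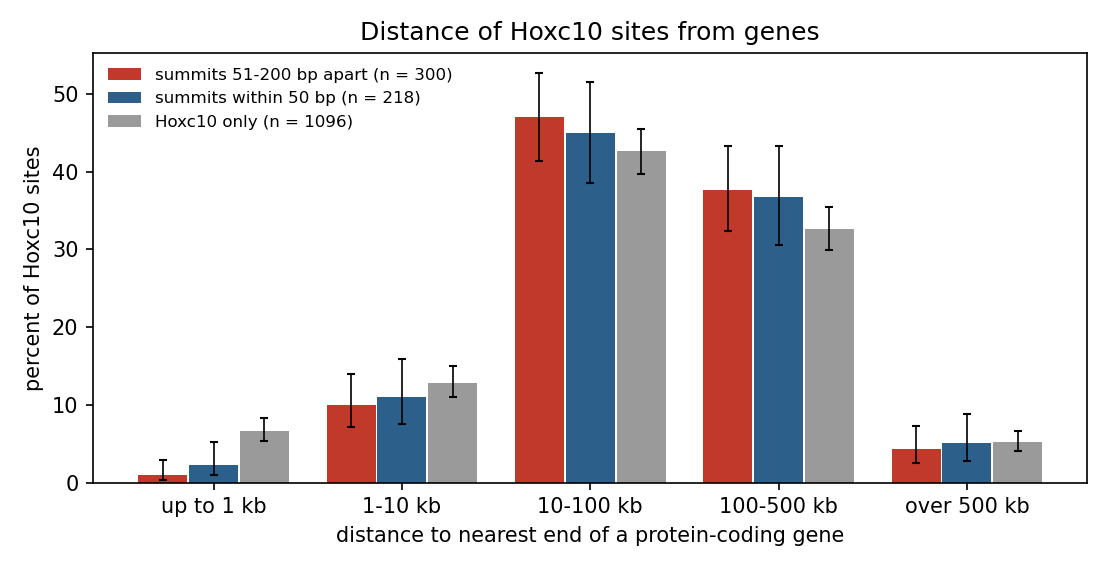
Percent of Hoxc10 sites (y axis) by distance to the nearest end of a protein-coding gene (x axis) for the pairs 51 to 200 bp apart (red, n = 300), the pairs within 50 bp (blue, n = 218) and Hoxc10 sites with no Tbx4 summit within 200 bp (grey, n = 1096). Sites inside genes are included. Error bars are 95% Wilson intervals, which cover counting error only; in the class up to 1 kb the red bar stands at 1.00% and the grey bar at 6.66%.

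For the genes around the pairs, each gene was given a domain: its body plus 1 kb at both ends, stretched up to the same region of the next genes but never by more than 1 Mb. Of 21887 protein-coding genes, 368, or 1.68%, had at least 1 member in their domain. Any Hoxc10 site was in the domain of 6.75% of genes, and any Tbx4 site in 17.0%. A pair within 50 bp was in 1.28%. Long domains held members more often. The share was 0.0876% for domains up to 100 kb, 1.23% up to 300 kb, 7.59% up to 1000 kb and 12.7% above that. Gene lists are therefore given with their domain lengths. The part of domain length, or of the number of sites of each factor, in the list counts was not tested.

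**Figure D4:**
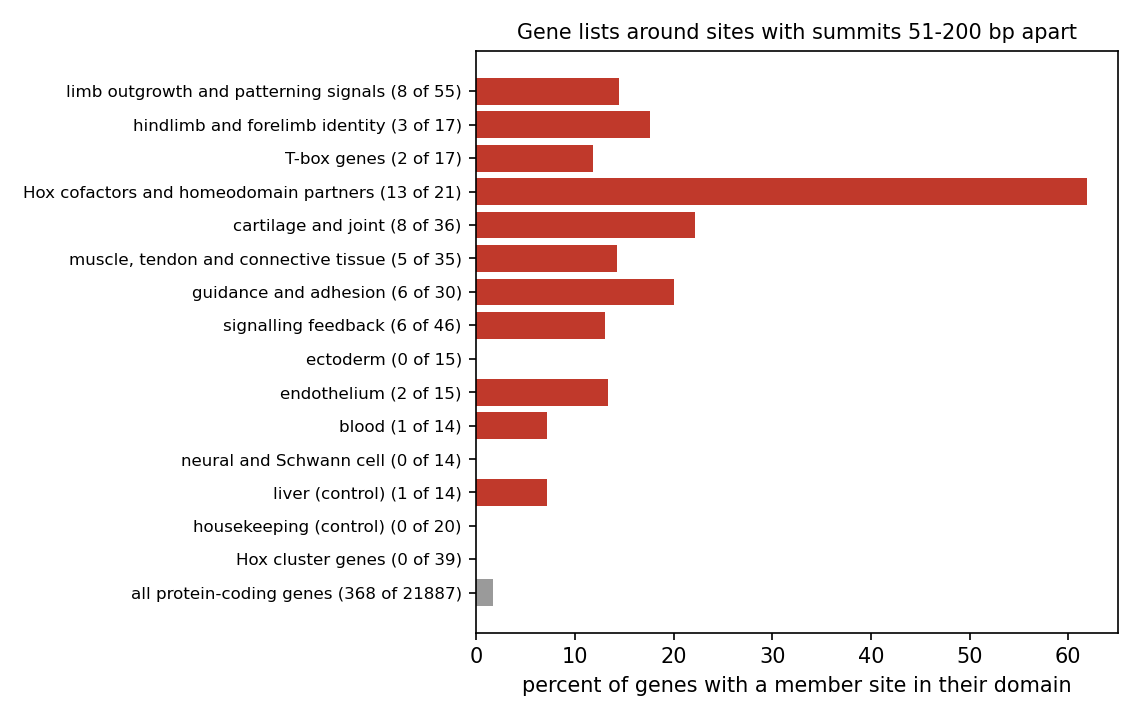
Percent of the genes of each list that have at least 1 pair of summits 51 to 200 bp apart in their domain (x axis), with the number of genes beside each name. The grey bar is the share over all protein-coding genes, 1.68%; Hox cofactors and homeodomain partners reach 61.9%, while the ectoderm, neural, housekeeping and Hox cluster lists are at 0.

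Genes of Hox cofactors and other homeodomain or zinc-finger homeobox partners stood highest, with a member at 13 of 21, or 61.9%. These held 18 different pairs. With shared pairs and shared intervals counted once for each gene, there were 1.15 members per Mb of domain against 0.117 over all genes. The median domain was 687.4 kb against 65.6 kb. By nearest gene 8 of the 21 had a member, and 5 had a pair with both scores above the list medians. The list was rich in sites of each factor: 85.7% of its genes had any Hoxc10 site and 76.2% any Tbx4 site. A pair within 50 bp was in the domain of 28.6%. Earlier results of these data had already placed this list high, so its count is no independent evidence. Pknox2, a partner that forms complexes with Pbx and Hox proteins, had 3 pairs, all inside the gene. Besides the one already named they scored 19.94 for Hoxc10 and 5.30 for Tbx4 at 36938681, and 7.69 and 2.26 at 37143411 of chromosome 9. Shox2, which is needed for the proximal limb skeleton, had 4 pairs and 0 within 50 bp. They lay downstream at 32886, 227306, 570669 and 639290 bp, with Hoxc10 scores of 6.34, 13.04, 5.69 and 12.24 in that order and Tbx4 scores from 2.26 to 8.12. Zfhx3, a large homeobox and zinc-finger factor gene, had 3. The best of them, at 108027811 of chromosome 8 and 251500 bp upstream, scored 33.64 for Hoxc10 and 12.42 for Tbx4. A pair between Irx1 and Irx2 (10.67 and 3.67) and a pair between Irx3 and Irx5 (7.02 and 5.30) counted for both neighbours. Pbx3, Zfhx4 and the teashirt genes Tshz1, Tshz2 and Tshz3 had 1 pair each, with Hoxc10 scores from 3.26 at Tshz1 to 11.45 at Tshz3. The pairs of Tshz1, Tshz2 and Tshz3 lay 826205, 11109 and 407133 bp from the gene. Of the 39 Hox cluster genes 0 had a member, 3 had a pair within 50 bp, 15 a Hoxc10 site and 12 a Tbx4 site. Their domains have a median of 13.5 kb, a length class in which 0.0876% of all genes had a member.

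Of 55 genes of limb outgrowth and patterning signals 8 had a member (14.5%, median domain 302.9 kb). By nearest gene there were 5, and with both scores above the list medians 3. Any Hoxc10 site was found at 43.6% of the list, any Tbx4 site at 63.6% and a pair within 50 bp at 10.9%. Bmp4, a ligand of the bud mesenchyme and ridge, had 2, 363561 bp downstream (Hoxc10 20.86, Tbx4 9.15) and 214791 bp upstream (5.05 and 18.38). The nearest pairs to a gene of this list from outside were at Dusp6, Gli2 and Spry2. The pair downstream of Dusp6, which encodes a phosphatase that switches off ERK, was only 1717 bp away, with 7.72 for Hoxc10 and 28.89 for Tbx4. A pair 24386 bp upstream of Spry2, an inhibitor of receptor tyrosine kinase signalling, had 8.43 and 18.38. Gli2, a transcription factor of Hedgehog signalling, had a pair 8413 bp downstream with 3.83 and 20.91. Zbtb16, a zinc-finger factor needed for the mouse hindlimb skeleton, had the highest Hoxc10 score of the list, 43.3 inside the gene, with a Tbx4 score of 6.19 at a distance of 156 bp. Single pairs were also found for the receptor gene Fgfr2 (7.72 and 6.19) and the ligand genes Fgf9 (5.69 and 5.30) and Wnt5a (13.04 and 3.67). They lay 98048 bp from Fgfr2, 875007 bp from Fgf9 and 299901 bp from Wnt5a. The pairs of Fgf9 and Wnt5a were nearer to another gene. At Dusp6, Spry2 and Gli2 the Tbx4 score was in the upper quartile of its list and the Hoxc10 score was not, while at Zbtb16 and Wnt5a it was the other way round.

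Of 17 genes of limb identity 3 had a member (17.6%, median domain 152.7 kb), as had 2 of 17 T-box genes (11.8%, median domain 236.8 kb), against 1.68% of all genes. The T-box genes had 1.11 members per Mb of domain and the identity genes 0.692, against 0.117 over all genes, counted as above. Among identity genes 35.3% had any Hoxc10 site, 58.8% any Tbx4 site and 11.8% a pair within 50 bp. Among T-box genes these shares were 29.4, 41.2 and 17.6%. Isl1, a LIM-homeodomain factor needed to start the hindlimb bud, had a pair 397644 bp upstream with 12.24 for Hoxc10 and 9.15 for Tbx4. Tbx15, a T-box gene of limb skeleton and muscle, had a pair inside the gene (5.05 and 5.30) and shared with Spag17 the strong pair at 99666160 of chromosome 3, 311900 bp from its own end. Tbx18, a T-box gene of mesenchyme, had 4. Among them 3 lay on 1 side, 249833 to 325704 bp downstream, with Tbx4 scores of 46.35, 12.42 and 2.94 at Hoxc10 scores of 10.67, 8.43 and 15.53. In each of these the summits were 97 or 98 bp apart. The other was 7783 bp upstream and scored 6.34 and 2.94.

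Of 36 cartilage and joint genes 8 had a member (22.2%, median domain 296.1 kb), 4 by nearest gene and 4 with both scores above the list medians. Any Hoxc10 site was found at 44.4% of them, any Tbx4 site at 66.7% and a pair within 50 bp at 19.4%. Sox9, which directs cartilage formation, had 3 pairs and 1 more within 50 bp. The 3 were spread from 656667 to 820165 bp away in the interval it shares with Gm11677. Their Hoxc10 scores were 24.63, 13.86 and 7.72, and the Tbx4 scores 3.67, 6.19 and 33.08 in the same order, so the strongest Hoxc10 site was the weakest Tbx4 site. Sox5, which acts with Sox9, had a pair of 19.04 and 14.74 at 328840 bp. Sox4 had one of 13.46 and 17.15 at 161492 bp, and Sox11 one of 13.04 and 3.67 at 680276 bp. Runx1 had 2, of which the farther, 446270 bp upstream, scored 11.45 and 34.51. Trps1, Erg and Pax1 had 1 each, with Hoxc10 scores of 6.34, 3.26 and 14.69 at 777834, 51435 and 55156 bp.

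Muscle, tendon and connective tissue genes had members at 5 of 35 (14.3%, median domain 294.6 kb). Cdh2, an adhesion molecule of mesenchyme, had the highest Tbx4 score of these, 35.95, with 14.69 for Hoxc10 at 550807 bp. Tcf4, taken as the gene of that symbol on chromosome 18, had 12.24 for Hoxc10 and 9.15 for Tbx4 at 258744 bp. The other 3 were Ebf2, Ebf3 and Meox2, with Hoxc10 scores of 12.24, 3.83 and 7.02. Any Hoxc10 site was found at 45.7% of the 35 genes and any Tbx4 site at 60.0%. A pair within 50 bp was found at 22.9%, more than the 14.3% with a member. By nearest gene 2 of the 35 had a member. Guidance and adhesion genes had members at 6 of 30 (20%, median domain 1028 kb). In this list 76.7% had any Hoxc10 site, 80.0% any Tbx4 site and 16.7% a pair within 50 bp. The receptor gene Robo2 had the highest Hoxc10 score, 35.74 inside the gene with 7.14 for Tbx4, and its ligand gene Slit2 had 16.39 and 14.74 at 658458 bp upstream. Sema3a had 2 pairs inside the gene (7.02 and 2.26, 7.02 and 2.94), and Nrp2, which encodes a semaphorin co-receptor, had 1 inside (7.72 and 4.46) and 1 downstream (7.72 and 3.67). The ephrin receptor genes Epha3 (9.16 and 28.89) and Epha7 (7.72 and 13.57) had 1 each.

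Feedback and response genes of the Notch, Wnt, Hedgehog, BMP and Hippo pathways had members at 6 of 46 (13.0%, median domain 309.5 kb). In this list 39.1% had any Hoxc10 site, 69.6% any Tbx4 site and 6.52% a pair within 50 bp. The Groucho corepressor genes Tle3 and Tle4 carried 3 pairs. At Tle3 these were the start of Gm34157 shown above and a pair 296157 bp downstream with 7.55 for Hoxc10 and 35.95 for Tbx4. At Tle4 the pair lay 292622 bp upstream. Gas1, a Hedgehog co-receptor gene, had 38.93 and 18.38 at 166564 bp downstream. Smad6, an inhibitor of BMP signalling, had 27.55 and 2.94 inside the gene with summits 196 bp apart. Lef1, an effector of Wnt signalling, had the weakest Tbx4 score among them, 1.63, with 3.26 for Hoxc10, and Tead1 was named above.

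Markers of other cell types and control lists were counted in the same way. The endothelial list had a member at 2 of 15 genes (13.3%, median domain 235.0 kb), Sox17 (10.67 and 11.30) and Erg, which is also a cartilage list gene. The blood list had 1 of 14 (7.14%, median domain 46.6 kb), Runx1. The liver list had 1 of 14 (7.14%, median domain 74.1 kb), Foxa2, which shares its pair with Pax1. Ectoderm (15 genes), neural and Schwann cell (14) and housekeeping (20) lists had a member at 0 genes, with median domains of 146.7, 91.8 and 38.6 kb. Any Hoxc10 site was found at 0, 7.14 and 0% of these lists. The Hoxc10 share was 26.7% for endothelium, 14.3% for blood and 7.14% for liver. Any Tbx4 site was found at 33.3% of ectoderm genes, 21.4% of neural and Schwann cell genes and 5 of the 20 housekeeping genes. These lists were thus not free of Tbx4 sites, and each was above the 17.0% of all protein-coding genes. For endothelium, blood and liver the Tbx4 shares were 46.7, 28.6 and 14.3%. With 1.68% of all genes holding a member, lists of this length cannot show a lower share of genes with a member. The part of these cell types in the pairs was not tested. In bulk tissue the share of cells that carry a pair is unknown.

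Members were scattered over the autosomes and rarely stood side by side. Merging members within 50 kb of each other left 286 loci, of which 13 held 2 or more, 27 pairs in all, and only 1 held 3. No member lay on chromosomes X or Y, where the Hoxc10 list has 3 and 7 sites. The lowest and highest shares among autosomes were on chromosomes 6 and 9. Chromosome 6 had 8 members among its 110 Hoxc10 sites, 7.27% (3.73 to 13.7%), and chromosome 9 had 20 among 73, 27.4% (18.5 to 38.6%), against 18.6% in all. Another Hoxc10 site of any kind lay within 50 kb of 29.7% (24.8 to 35.1%) of members, 26.6% (21.2 to 32.8%) of sites within 50 bp and 24.3% (21.8 to 26.9%) of unshared sites. A further Tbx4 summit within 1 kb was found at 7 members.

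The locus of 3 lay in the domain of Zfp703, which encodes a zinc-finger corepressor. This domain held 7 of the 300 pairs, the most of any gene and also counted for Thap1, among 21 Hoxc10 and 19 Tbx4 sites, and 2 pairs within 50 bp. The 7 pairs ran from 26656803 to 26961461 of chromosome 8, all on the lower-coordinate side of Zfp703 and 15875 to 320533 bp from it. Their Hoxc10 scores were 7.02, 23.58, 7.72, 13.04, 5.05, 85.52 and 57.02 in order towards the gene. The Tbx4 scores were 3.67, 7.14, 5.30, 2.26, 14.74, 9.15 and 5.30. The 2 pairs nearest to the gene thus had the highest Hoxc10 scores of the domain, and their Tbx4 scores were in the range of the others.

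**Figure D5:**
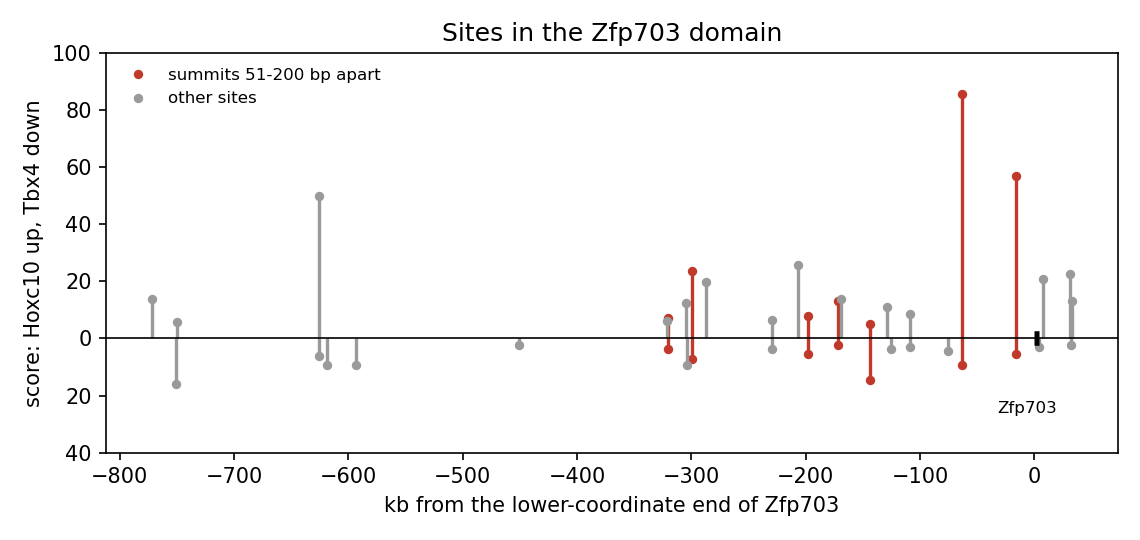
Sites in the domain of Zfp703: distance from the lower-coordinate end of the gene (x axis, kb) against the score, with Hoxc10 upwards and Tbx4 downwards (y axis, −log10 scale of MACS2). Red marks are the 7 pairs 51 to 200 bp apart and grey marks other sites; the black box is the gene, and the tallest red marks, 85.52 and 57.02, stand 63.0 and 15.9 kb from it.

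Other domains with several members differed in strength. The overlapping domains of Zfp608 and Gramd3 held 5 each, 3 of them the same. Those of Gramd3 had Hoxc10 scores of only 2.72 to 4.43 beside Tbx4 scores from 3.67 to 12.42, and the best Hoxc10 score at Zfp608 was 9.16. Shox2 and its neighbour Veph1 shared their 4, and Mgmt and Mki67 had 4 with a best Hoxc10 score of 9.91. These domains are long, between 684.8 kb at Shox2 and 2037 kb at Zfp608. In all, 252 genes were the nearest to a member and 218 of them to just 1.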

How the data were processed

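ChIP-seq summit lists of 2 samples of hindlimb tissue at e11.5 were used, 1 per factor. The build was mm10, and Bowtie2 2.2.6, MACS2 2.1.1.20160309 and HOMER were used, per the submitters' processing notes. Each deposited row is a 1 bp summit with a score on a −log10 scale from the authors' peak calling; p or q is not stated. The control library and any pooling were not given. The list names carry abbreviations that the labels leave unexplained, so whether the rows are a selection of all peaks is unknown, which touches every count and share.

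Pairs were found by nearest summit (Python 3.11.15, pandas 2.3.3, SciPy 1.17.1). Genes came from a RefSeq table of GRCm38.p6, the same assembly as mm10, with 21887 protein-coding genes, 17492 of them with a strand from the start windows. No genome was used, so the planned motif search around all members was not run. Shares were compared by Fisher's exact test, adjusted over 10 comparisons, after tests on simulated data. Of 340 symbols in 14 gene lists 339 matched, and the 39 Hox cluster genes were added as another list. Members and lists were chosen with earlier results of these data known. Named genes are those of the 10 highest members by each score and by summed rank, members within 1 kb of a gene end, the 8 genes with the most members, up to 5 genes per list, and sites at the limits; further list genes and Map3k7 were named after their values were seen, and some list genes are not reported here.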

Additional observations from a re-analysis of the deposited data

How the results depend on the processing

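Results were recomputed under other settings, 93 alternatives in all, and 77 kept the direction and the side of the threshold or the size. Most of the 77 were comparisons that passed neither in the main setting nor in the alternative, so this tally does not measure how firm the results are. The setting of mutual nearest pairs could change nothing, because all 300 pairs were mutual. The lower share at gene ends and the higher Tbx4 scores relative to unshared sites passed in all of their 9 and 7 alternatives (-6.98 to -3.84 points, Fisher's exact test, adjusted p up to 0.0273, and 18.8 to 27.1 points, adjusted p up to 7.4e-09). The difference in Hoxc10 score from the sites within 50 bp was -10.5 to -5.91 points and did not pass in any of 7. Against the sites within 50 bp, the share beyond 100 kb changed sign with 1 site per locus (-0.251 points), upper limits of 150 and 300 bp (-0.0427 and -0.886), a lower limit of 61 bp (-1.23) and a far limit of 200 kb (-4.19), which also gave -1.14 against unshared sites. With a far limit of 50 kb that difference was 10. The share within 500 bp of a gene end differed by 0.0826 points from the sites within 50 bp. The upper quartile gave 9.07 for Hoxc10 scores against unshared sites. Limited to scores above the median of each list, 113 pairs were left. Chosen after seeing the data, nearest genes in place of domains gave 5 limb, 8 cofactor and 4 cartilage genes, and pairs with both scores above the medians 3, 5 and 4. The cause of these changes was not tested. No paired analysis was possible because each group has 1 sample.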
